A study of Mus musculus with 6 samples.

Results

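The plasminogen activation system was examined through 9 genes: the activators Plau (urokinase) and Plat (tissue plasminogen activator), the urokinase receptor Plaur, plasminogen itself (Plg), the serpin inhibitors Serpine2, Serpinb2 and Serpinf2, and the surface proteins Anxa2 and S100a10. The genes were chosen by symbol, with earlier results of these data known, and every probe annotated to one of them was taken. Of the 9 genes, 8 had a probe, 16 probes in all among the 45281 on the array; Serpine2 had none in the annotation used. RNA came from immortalized proximal tubular cells of mouse, labelled with the strain background C56BL/6, and was measured on Illumina bead arrays. The Glis2KD group (3 arrays) carried an shRNA, a short hairpin RNA that lowers its target transcript, against Glis2, a zinc finger gene whose loss is known to cause cystic and fibrotic kidney disease. The Control group (3 arrays) carried an shRNA against GFP. Both groups were infected with lentivirus and harvested 7 days later, so infection and immortalization were shared by all arrays. The labels name 1 hairpin per group and do not say if replicates were infected or grown separately; p-values therefore cover the variation among these arrays, and that variation may be technical. With 1 hairpin per target, the lowering of Glis2 and any other action of that hairpin cannot be told apart.

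Plasminogen is a circulating zymogen that is made mainly by the liver and is cut by urokinase or tissue plasminogen activator to plasmin, a broad serine protease that degrades fibrin and other matrix proteins. Urokinase acts largely at the cell surface, where it is held by its glycolipid-anchored receptor, whereas the annexin A2 and S100A10 complex binds plasminogen and tissue plasminogen activator. Serpins stop the cascade by trapping the activators or plasmin in covalent complexes. In the kidney, urokinase is a product of tubular epithelium and is excreted in urine.

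The number of arrays limits the precision. Intensities ran from 85.4 to 52227 without background subtraction, the most frequent being 113. The limit of background was set at 137, a probe being counted above it by its 6-array mean, and 40.9% of probes on each array lay over that limit. The hairpin target was lower in Glis2KD cells: the brighter Glis2 probe averaged 169 ± 7.39 in Glis2KD cells and 247 ± 26.4 in Control cells (SD, n = 3 each), and the other Glis2 probe 161 ± 15.9 in Glis2KD and 206 ± 13.6 in Control. Their log2 differences were -0.55 and -0.36, with limma's adjusted p = 7.16e-05 and 0.00577. Both probes were dim and their intensities contain background, so these differences are understated. Over alternative processing settings they ran from -1.26 to -0.44 and from -1.01 to -0.26. Limma called the brighter probe in 16 of 16 settings and the other in 14 of 15, with a highest adjusted p of 0.179. Among 10 measured proximal tubule markers, 3 were above background. These were the water channel Aqp1 (365 ± 101 in Glis2KD, 9760 ± 706 in Control), the endopeptidase Mme (118 ± 5.08 in Glis2KD, 855 ± 146 in Control) and the endocytic adaptor Dab2 (2398 ± 48.7 in Glis2KD, 3310 ± 116 in Control), all called lower by limma. Mme was over the limit on 0 of 3 Glis2KD arrays and counted as above background through its Control arrays only. The defining proximal tubule markers Lrp2, Slc34a1, Slc5a2 and Anpep lay under the limit on all 6 arrays, so that the label rests on few transcripts here. Summed over the 10 markers the intensity was 3631 to 3933 on Glis2KD arrays and 14055 to 15840 on Control arrays. Aqp1 made up most of the Control sum. Of the 10 markers 7 were not called, and the median log2 difference over the 10 was 0.0035. Of 7 markers of other tubule segments 3 were above background. Among these Cdh16, the kidney-specific cadherin, averaged 137 ± 9.53 in Glis2KD and 365 ± 47.7 in Control and was called lower, and Slc12a3 and Slc12a1 were not called; the 7 summed to 1829 to 1958 on Glis2KD arrays and 2111 to 2363 on Control arrays, and Umod, Aqp2, Scnn1g and Calb1 were under the limit on all 6. Of 6 fibroblast markers only Dcn was above background (139 ± 17.7 in Glis2KD, 275 ± 30.3 in Control). Dcn, like Cdh16, was over the limit on 1 of 3 Glis2KD arrays and on 3 of 3 Control arrays. Of 4 leukocyte markers only Csf1r was (253 ± 31.0 in Glis2KD, 187 ± 20.0 in Control), and of 5 endothelial markers 0 were. The part of these marker differences in the results below was not tested, and in RNA from whole cultures fewer cells of a type and less RNA per cell cannot be told apart.

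Urokinase transcript fell and tissue plasminogen activator transcript rose in Glis2KD cells, and the transcripts of the urokinase receptor and S100a10 rose as well. In the fit across all probes, limma called 6 of the 16 probes at an adjusted p under 0.05, 5 higher and 1 lower, where it called 15.6% of all 45281 probes, 7.84% higher and 7.76% lower. The 6 called probes belonged to 6 genes, Plau, Plat, Plaur, Anxa2, S100a10 and Serpinb2. Of the 16 probes 6 were above background, each on all 6 arrays, and 5 of those were called, 4 higher and 1 lower, against 37.5% of the 18080 probes above background, 18.8% higher and 18.7% lower. Glis2KD and Control arrays were fully separated for 9 of the 16 probes and for 6 of the 6 above background, against 26.3% of all probes and 48.4% of those above background. The median log2 difference was 0.74 over those 6 probes and 0.03 over all 16, beside -0.0046 over the probes above background and 0.00026 over all probes.

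**Figure D1:**
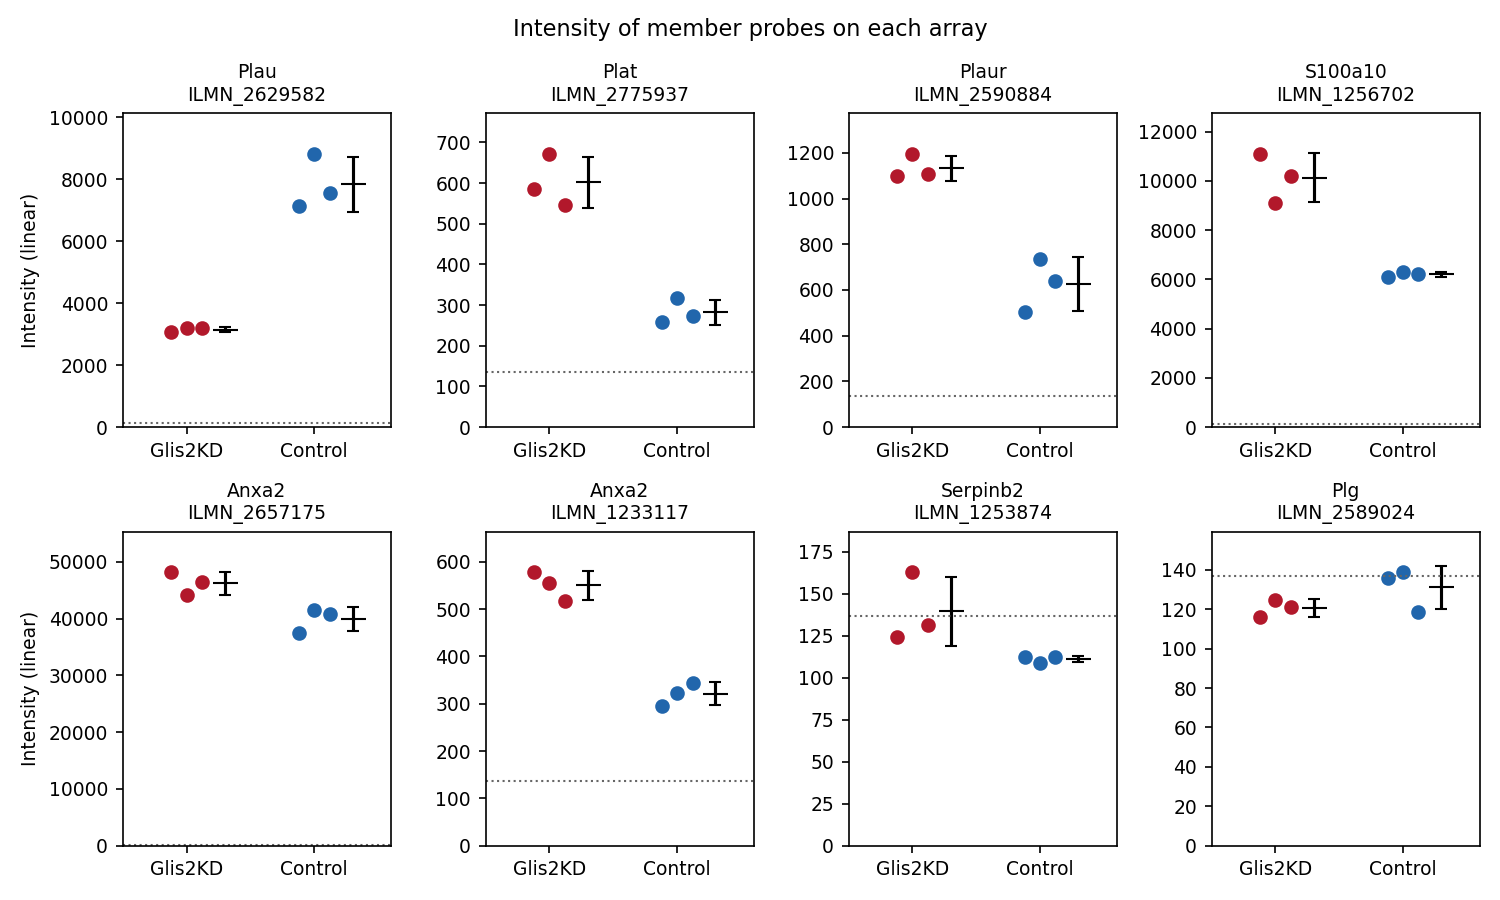
Intensity (linear scale) of 8 member probes on each of 3 Glis2KD arrays (red, left) and 3 Control arrays (blue, right), with mean ± SD in black and the background limit of 137 as a dotted line. The Plau points of Glis2KD lie between 3060 and 3205, under all Control points, while those of Plat, Plaur, S100a10 and both Anxa2 probes lie above all Control points; Serpinb2 and Plg sit around the limit.

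Among the activators, Plau gave intensities of 3060, 3205 and 3185 on the Glis2KD arrays and 7128, 8812 and 7554 on the Control arrays. All 3 Glis2KD arrays were below all 3 Control arrays, by a wide margin, and they lay closer together than the Control arrays did. The means were 3150 ± 78.7 in Glis2KD cells and 7831 ± 876 in Control cells (SD, n = 3 each), so the level was 2.48-fold lower in Glis2KD. The log2 difference was -1.31 ± 0.089 (SE) with a 95% interval of -1.49 to -1.12 and limma's adjusted p = 1.8e-10. Of 9665 genes above background, each taken at its brightest probe, 115 had a lower log2 difference than Plau. Plau was measured by 1 probe, ILMN_2629582.

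Plat, the other activator, moved the opposite way. Its probe ILMN_2775937 read 587, 672 and 547 on the Glis2KD arrays and 257, 317 and 273 on the Control arrays. The lowest Glis2KD array was above the highest Control array. The means were 602 ± 63.5 in Glis2KD and 282 ± 30.9 in Control (SD, n = 3 each), a 2.13-fold higher level and a log2 difference of 1.09 ± 0.096 (SE), with limma's adjusted p = 1.18e-08. Only 148 of the 9665 genes above background had a higher log2 difference. The other 2 Plat probes, ILMN_3003008 and ILMN_1232110, stayed under the background limit on all 6 arrays, at means of 119 and 117 in Glis2KD and 117 and 118 in Control. The rise of Plat therefore rests on 1 of its 3 probes. Because background is contained in these intensities, folds of a probe as dim as that of Plat are understated: with the most frequent intensity subtracted its log2 difference was 1.54, still called by limma with adjusted p = 0.0175.

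**Figure D2:**
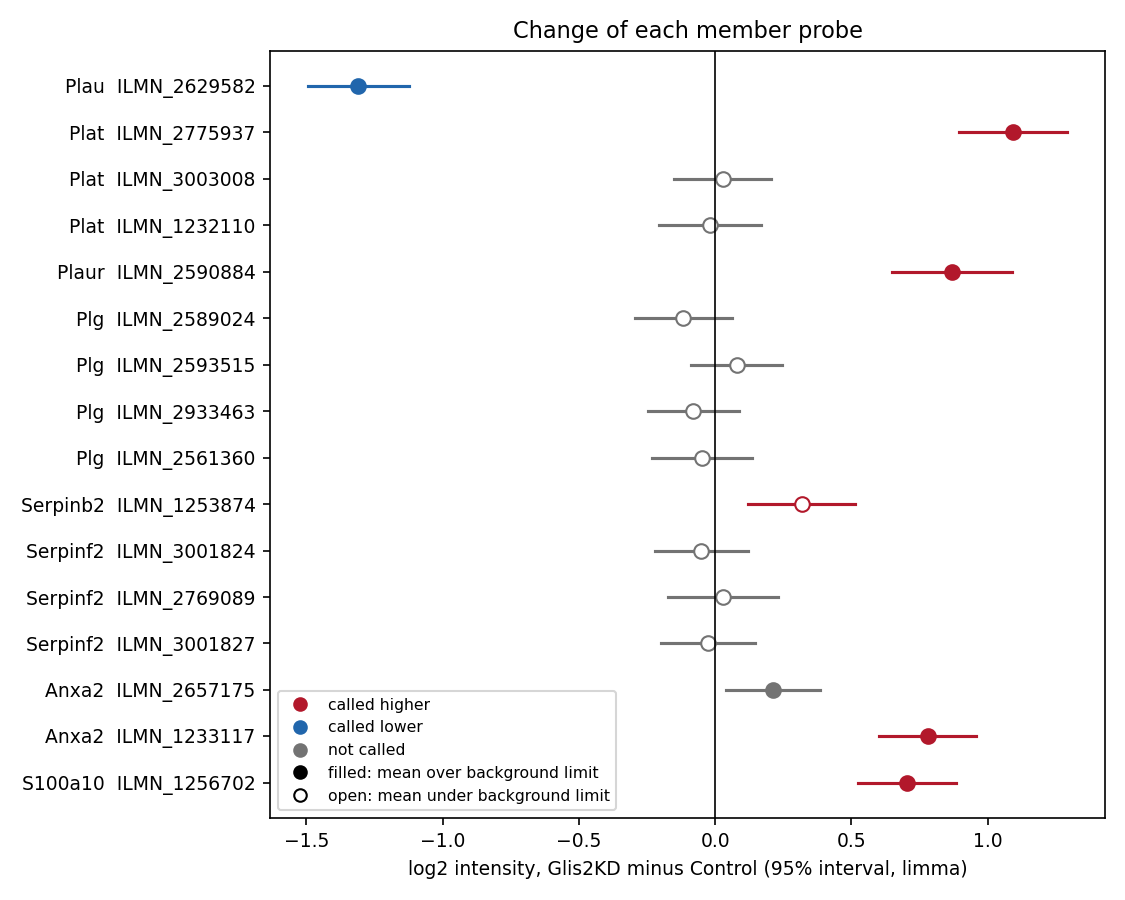
Log2 intensity difference, Glis2KD minus Control, of all 16 member probes with 95% intervals from limma (3 arrays per group). Red marks probes called higher, blue called lower and grey not called; filled points have a mean over the background limit. Plau is at -1.31, and the called probes above background on the right run from 0.70 for S100a10 to 1.09 for Plat.

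Plaur encodes the receptor that concentrates urokinase at the plasma membrane. It gave 1097, 1195 and 1106 on the Glis2KD arrays, against 504, 738 and 640 on the Control arrays. The groups did not overlap, and here the Control arrays spread more than the Glis2KD arrays. The means were 1133 ± 54.1 in Glis2KD and 627 ± 117 in Control (SD, n = 3 each), and the log2 difference was 0.87 ± 0.11 (SE) with limma's adjusted p = 1.79e-06. Receptor and ligand transcripts thus changed in opposite directions. With the most frequent intensity subtracted the log2 difference of Plaur was 1.01, and limma's adjusted p = 0.0605 no longer passed the threshold. Over the 16 alternatives its adjusted p by limma ran from 4.95e-08 to 0.0605.

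S100a10 encodes p11, the small S100 subunit whose C-terminal lysine binds plasminogen. Its intensities were 11091, 9110 and 10184 on the Glis2KD arrays and 6091, 6314 and 6201 on the Control arrays. The Control arrays were nearly equal, and every Glis2KD array lay above them. With means of 10129 ± 992 in Glis2KD and 6202 ± 112 in Control (SD, n = 3 each), the level was 1.63-fold higher in Glis2KD, a log2 difference of 0.70 ± 0.087 (SE), limma's adjusted p = 2.03e-06.

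Anxa2 encodes annexin A2, the calcium-dependent membrane binding partner of p11, and its 2 probes gave different changes. The brighter, ILMN_2657175, annotated to the RefSeq transcript, read 48109, 44068 and 46393 on the Glis2KD arrays and 37435, 41517 and 40762 on the Control arrays. The groups did not overlap, but their log2 difference of 0.21 (95% interval 0.039 to 0.38) did not pass, with limma's adjusted p = 0.101. This was one of the brightest probes of the array, with 44 above it, and its mean was 82.4% of the highest intensity on the arrays; whether its signal was close to saturation was not tested. With an offset of 50, with an intensity trend and robust estimation, or relative to neighbouring genes it was called (limma's adjusted p = 0.0371, 0.0372 and 0.0169), within a range of 0.0169 to 0.348 over its alternatives. The dimmer probe, ILMN_1233117, annotated to another cDNA record of the gene, read 577, 554 and 518 on the Glis2KD arrays and 296, 322 and 344 on the Control arrays. Its log2 difference was 0.78 ± 0.086 (SE), with a 95% interval of 0.60 to 0.96 and limma's adjusted p = 3.98e-07. That interval lies wholly above the one of the brighter probe; the difference between the probes was not tested.

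**Figure D3:**
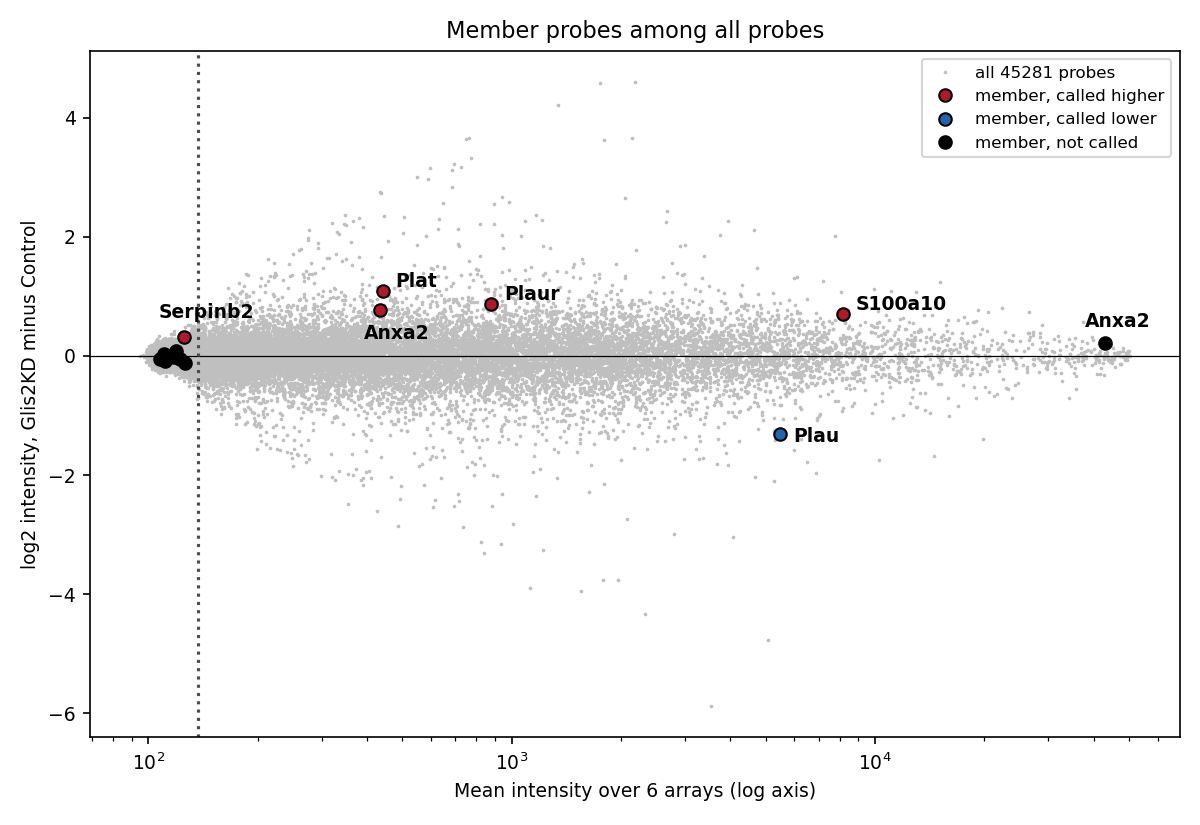
Mean intensity over the 6 arrays (log axis) against log2 intensity difference, Glis2KD minus Control, for all 45281 probes (grey) and the 16 member probes (coloured by call). The dotted line is the background limit of 137; Plau, Plat, Plaur, S100a10 and the dimmer Anxa2 probe stand at the outer part of the cloud, and the uncalled Plg, Plat and Serpinf2 probes sit at the low end.

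The receptor Plaur and the co-receptor gene Anxa2 were the called genes with a promoter window in RefSeq (build GRCm38.p6) that were above background, and both windows are shown because both genes had a probe that rose. A window runs from 250 bases before a transcript start to 50 bases after it. Windows were found for 5 of the 9 genes, namely Plaur, Anxa2, Serpine2, Serpinb2 and Serpinf2. The sequences run 5′ to 3′ on the plus strand, and capitals mark matches to TGANTCA, the core recognised by AP-1 (Fos and Jun dimers).
Plaur, chr7:24462233-24462532: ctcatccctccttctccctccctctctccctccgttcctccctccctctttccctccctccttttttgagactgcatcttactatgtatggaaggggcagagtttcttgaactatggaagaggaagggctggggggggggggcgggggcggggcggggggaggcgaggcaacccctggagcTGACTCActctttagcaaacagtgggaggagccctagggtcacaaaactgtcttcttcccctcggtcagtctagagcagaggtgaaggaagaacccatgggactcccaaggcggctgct
Anxa2, chr9:69453433-69453732: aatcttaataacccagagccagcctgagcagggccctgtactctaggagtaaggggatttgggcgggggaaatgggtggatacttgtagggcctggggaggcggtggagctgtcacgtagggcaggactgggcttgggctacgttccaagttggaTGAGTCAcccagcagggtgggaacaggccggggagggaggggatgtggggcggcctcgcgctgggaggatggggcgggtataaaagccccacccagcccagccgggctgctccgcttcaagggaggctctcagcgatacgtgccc

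Each of those windows held 1 such match, beginning 69 bases before the start in Plaur and 95 bases before it in Anxa2. A match was present in 3 of the 5 genes with a window, Serpinb2 being the third, and 7.81% of all 32851 windows of 300 bases held this motif on either strand. The GC box GGGCGG, bound by SP1, matched 3 times in each window and is common, being present in 35.7% of all windows. A TATAAA box was found in the Anxa2 window and not in the Plaur window, against 13.6% of all windows, and 0 of the 5 genes had the Gli site TGGGTGGTC, present in 0.253%. The motifs do not overlap one another between kinds; in Plaur the GC boxes begin 111, 105 and 100 bases before the start, so the first adjoins the second, which shares its last base with the third. The AP-1 motif was chosen after the sequences were seen, and a match describes letters only.

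**Figure D4:**
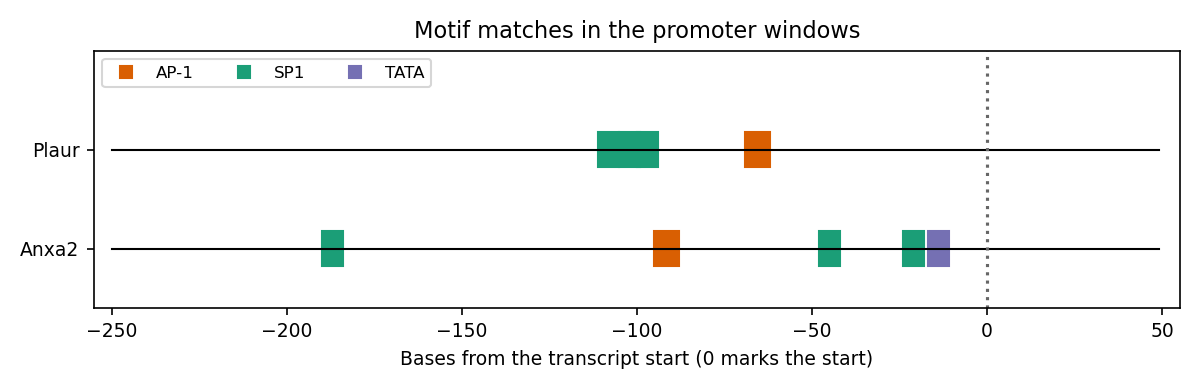
Positions of AP-1 (orange), SP1 (green) and TATA (purple) motif matches on either strand in the 300-base windows of Plaur and Anxa2, in bases from the transcript start. Both windows hold 1 AP-1 match, at -69 in Plaur and -95 in Anxa2.

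The substrate of the cascade was not detected. Plg had 4 probes, and the brightest of them, ILMN_2589024, read 116, 125 and 121 on the Glis2KD arrays and 136, 139 and 118 on the Control arrays. Only 1 Control array was over the limit, by a small amount. Limma did not call this probe, and the other 3 Plg probes were under the limit on every array. Plg transcript was thus not detectable above background in either group, and no fold is given.

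Of the inhibitors, Serpinb2, or plasminogen activator inhibitor type 2, a largely intracellular serpin that blocks urokinase, stood at the edge of detection. It read 124, 163 and 132 on the Glis2KD arrays and 112, 109 and 113 on the Control arrays. The groups did not overlap, although a single Glis2KD array, replicate 2, exceeded the background limit and no Control array did. Limma called it higher with adjusted p = 0.0216. With the limit in place of the Control readings the ratio of Glis2KD to Control was 1.01. The other Glis2KD arrays were themselves under the limit, so this ratio is no lower bound on the fold. Without Glis2KD replicate 2 limma's adjusted p = 0.194, without Control replicate 1 it was 0.0567 and without Control replicate 2 it was 0.074. With the most frequent intensity subtracted limma's adjusted p = 0.782, the highest of its alternatives, of which 0.00352 was the lowest.

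Serpinf2 encodes alpha-2-antiplasmin, the main fast inhibitor of plasmin in blood, which is made chiefly in the liver. Its 3 probes lay under the background limit on all 6 arrays and none was called. In all, 8 member probes never reached the limit, those of Serpinf2, 3 of Plg and 2 of Plat. Their readings ran from 99.7 to 132, and the lowest unadjusted p among them by limma was 0.326. No change of Serpinf2 was detectable at this signal, which does not show that the transcript was absent. Serpine2, protease nexin 1, was not analysed here.

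The member genes lie on different chromosomes except for Serpinb2 and Serpine2, both on chromosome 1. According to RefSeq, Plau is on chromosome 14, Plat on 8, Plaur on 7, Plg on 17, Serpinf2 on 11, Anxa2 on 9 and S100a10 on 3. The median log2 difference of the 50 nearest genes above background ran from -0.12 for Plg to 0.14 for Plaur. Taken relative to these neighbours, Plau, Plat, Plaur, S100a10 and the dimmer Anxa2 probe were still called by limma.

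Other genes of the plasminogen pathway, listed by role but with earlier results of these data known, were taken next. Of 18 listed genes 16 were measured and 7 were above background. By limma 3 of the 16 fell, 0 rose and 13 were not called, against 22.0% of 19057 genes called at their brightest probe and 11.1% called lower. Among genes above background 42.2% were called and 21.5% were called lower, beside 3 of the 7 here. The median log2 difference was -0.02 over the 16, beside 0.0040 over all genes. The hepsin gene Hpn, under the limit on all arrays, had an unadjusted p under 0.05 (0.00861) and was called higher by limma with normexp correction or with trend and robust estimation (adjusted p = 0.0287 and 0.0326).

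Hgfac encodes a secreted serine protease that, like urokinase, can activate hepatocyte growth factor. It read 874, 928 and 945 on the Glis2KD arrays, against 3383, 2876 and 3013 on the Control arrays. Every Glis2KD array was far below every Control array. The level was 3.37-fold lower in Glis2KD, a log2 difference of -1.75 with limma's adjusted p = 6.08e-13. The transcript of the growth factor, Hgf, was under the limit on all arrays.

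Lrp1, the endocytic receptor that clears complexes of activators with serpins, read 177, 187 and 156 on the Glis2KD arrays and 303, 272 and 222 on the Control arrays, with a log2 difference of -0.61 and limma's adjusted p = 0.000114. Igf2r, which binds the urokinase receptor and plasminogen besides mannose 6-phosphate, averaged 774 ± 79.0 in Glis2KD and 991 ± 43.2 in Control (SD, n = 3 each), with -0.36 and limma's adjusted p = 0.005. Igf2r was called on 1 of its 2 probes. Both lost their call with the most frequent intensity subtracted (limma's adjusted p = 0.104 for Lrp1 and 0.117 for Igf2r), and Igf2r also relative to its neighbours (0.0508). The 4 others above background, the plasminogen receptor Plgrkt, thrombomodulin (Thbd), matriptase (St14) and the proprotein convertase Pcsk6, were not called, with log2 differences from -0.18 to 0.13. Vtn, F11, F12, Klkb1, Hpn and Hrg were under the limit on all arrays.

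**Figure D5:**
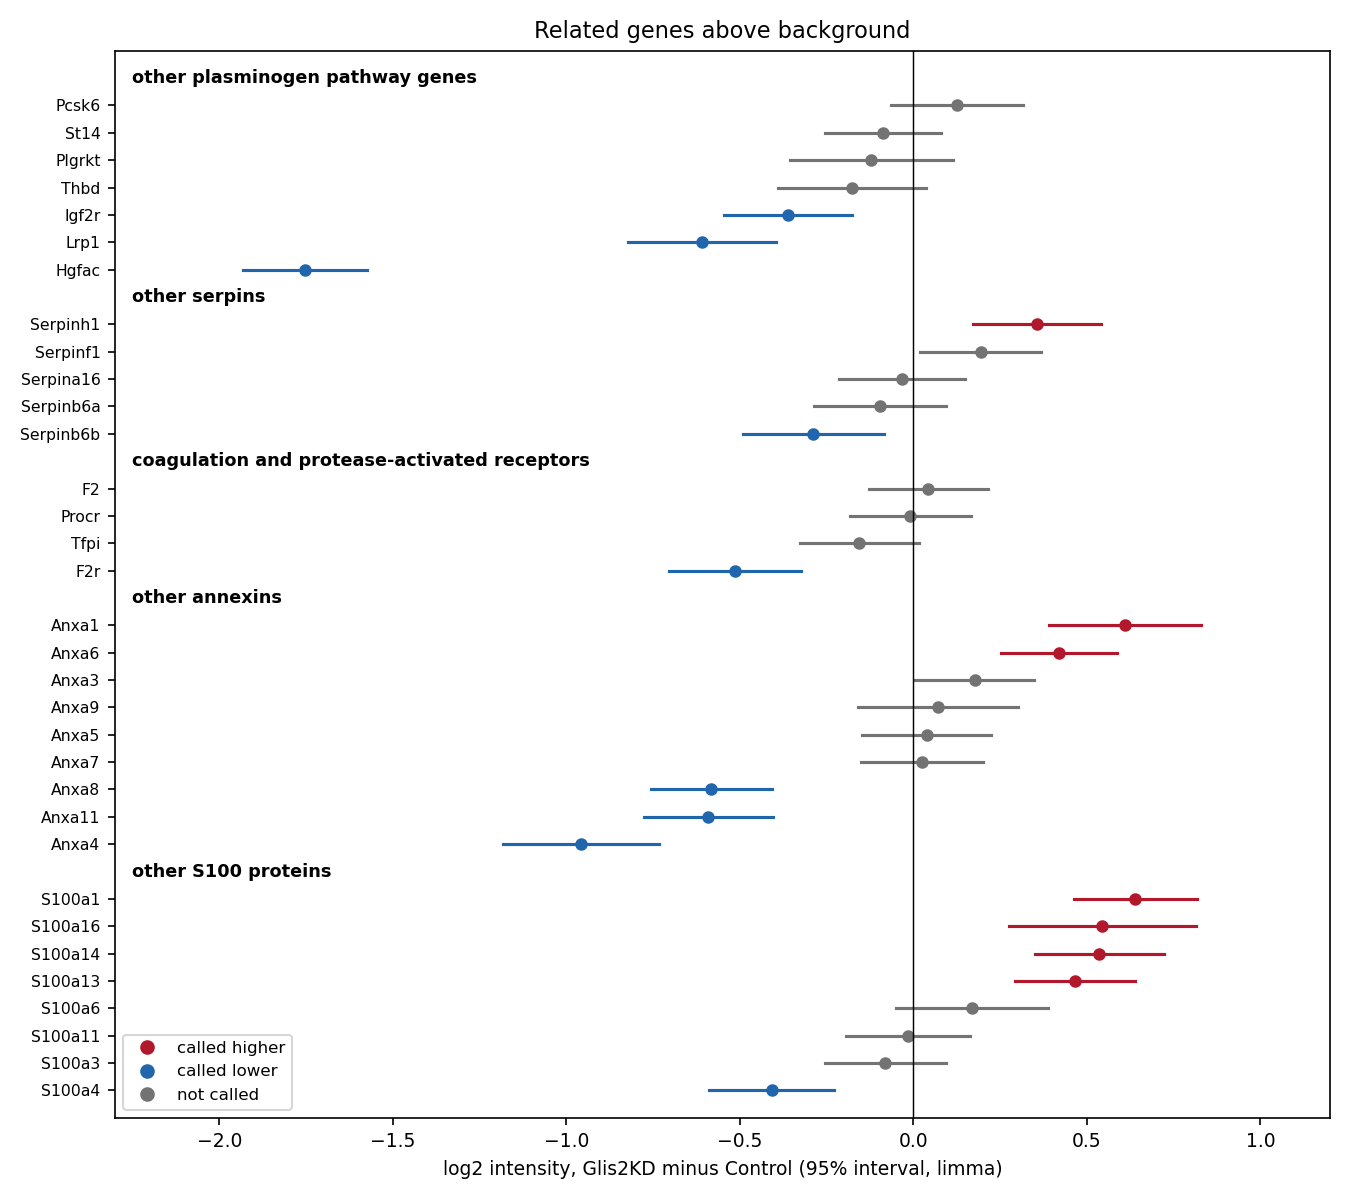
Log2 intensity difference, Glis2KD minus Control, with 95% intervals from limma, for the genes above background in 5 related lists (1 probe per gene). Hgfac at -1.75 lies farthest from 0; among S100 genes 4 are called higher and 1 lower, and among annexins 2 higher and 3 lower.

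Few other serpins were detected. Of 54 measured, 5 were above background and 37 were under the limit on all arrays. Limma called 1 higher and 1 lower, against 22.0% of all genes called and 42.2% of those above background. Serpinh1, the collagen chaperone HSP47, which inhibits no protease, averaged 7252 ± 280 in Glis2KD and 5685 ± 636 in Control (SD, n = 3 each), a log2 difference of 0.36 with limma's adjusted p = 0.00609. It lost its call with the most frequent intensity subtracted and relative to its neighbours (limma's adjusted p = 0.129 and 0.0964). Serpinb6b averaged 1459 ± 18.5 in Glis2KD and 1796 ± 274 in Control, with -0.29 and limma's adjusted p = 0.0494, but it kept the call in only 6 of 16 alternatives, where limma's adjusted p ran from 0.00186 to 0.404; it was lost with subtraction (0.404), normexp (0.144), the offset (0.0597), trend with robust estimation (0.0538), the replicate block (0.0533) and in each fit leaving out 1 array (0.102 to 0.285) except that of Control replicate 3. Probes of the closely related clade B serpins may not tell these genes apart.

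In the list of coagulation genes and protease-activated receptors, 14 were measured, 4 were above background, and limma called 1 lower and 0 higher, against 11.1% of all genes and 21.5% of those above background called lower. The called gene was F2r, the thrombin receptor PAR1, which plasmin can also cut. It read 15397, 14004 and 16980 on the Glis2KD arrays and 21547, 24197 and 20452 on the Control arrays. The groups did not overlap. The log2 difference was -0.51, with limma's adjusted p = 0.000217, and 0.0682 with the most frequent intensity subtracted. Pros1, protein S, under the limit on all arrays, was not called (limma's adjusted p = 0.197, unadjusted 0.044). Uncalled genes of the other lists also had an unadjusted p under 0.05 by limma. Among them were Serpinf1 (0.0301) and Anxa3 (0.0445), both above background. Tissue factor (F3) lay under the limit on all arrays.

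Of 11 other annexins, 9 were above background and limma called 2 higher and 3 lower, against 20.8% higher and 21.5% lower among all genes above background. Anxa1 averaged 13180 ± 1559 in Glis2KD and 8659 ± 1288 in Control (SD, n = 3 each), and Anxa6 7542 ± 125 in Glis2KD and 5644 ± 214 in Control. Anxa4 averaged 2314 ± 130 in Glis2KD and 4541 ± 847 in Control, Anxa11 1908 ± 226 in Glis2KD and 2860 ± 31.4 in Control, and Anxa8 278 ± 13.0 in Glis2KD and 416 ± 25.1 in Control. Their log2 differences were 0.61, 0.42, -0.96, -0.59 and -0.58, with limma's adjusted p between 5.88e-07 and 0.000485. Limma called 2 of 3 probes of Anxa4, 2 of 3 of Anxa11, 2 of 2 of Anxa8 and 1 of 3 of Anxa6, and 0 of these genes had a probe called the opposite way. The call of Anxa1 was lost with the most frequent intensity subtracted (limma's adjusted p = 0.12).

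Of 13 other S100 genes, 8 were above background, and limma called 4 higher and 1 lower, beside 10.9% of all genes and 20.8% of those above background called higher. These 8, like S100a10, lie on chromosome 3. S100a1, S100a14, S100a13 and S100a16 had log2 differences of 0.64, 0.54, 0.47 and 0.54, and S100a4 had -0.41. S100a14 averaged 5041 ± 186 in Glis2KD and 3489 ± 394 in Control (SD, n = 3 each). S100a16 was the one of these 5 whose groups overlapped, and with the most frequent intensity subtracted limma's adjusted p = 0.364 for S100a16 and 0.0712 for S100a4. S100a14 was called in 15 of 16 alternatives, where limma's adjusted p ran up to 0.05. S100a6 and S100a11 had 0.17 and -0.01 and were not called.

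The genes whose array profiles were most like those of the activators were found by the root mean square distance between log2 values centred on each probe's mean, over the 6 arrays and among genes above background. For Plat these were Dusp5, Nipal2 and Cltb, at distances of 0.040, 0.065 and 0.081 on the log2 scale. Dusp5, a phosphatase of ERK kinases, averaged 1215 in Glis2KD and 575 in Control. For Plau they were Lipa, Akr1b8 and Nrp1, at 0.078, 0.078 and 0.089. Nrp1, the co-receptor neuropilin 1, averaged 2297 in Glis2KD and 6143 in Control, and lysosomal acid lipase, Lipa, 229 in Glis2KD and 551 in Control. With 2 groups, such a distance measures mostly how alike 2 genes are in the size of the difference between them.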

How the data were processed

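Trizol-extracted total RNA, treated with DNase I and quality-checked, was Cy3-labelled and hybridised by the Illumina protocol, per the labels. The authors deposited linear intensities, 1 for each probe on each array. Their software, normalization and genome build were not given in the sources used here. The 6 deposited columns share their lowest and highest values, so they had been brought to a common distribution. Detection p-values were not used here.

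Intensities were floored at 16, which altered 0 values, and taken as log2 with no further normalization. GEO's platform annotation named a single gene for 34885 probes, several for 18 and no gene for 10378 of 45281; by Entrez identifier, 34807 of the first kind were found in a RefSeq gene table (GRCm38.p6). Where a gene needed 1 value, its probe with the highest mean was used. The background limit is the most frequent intensity (113) plus 3 times the SD of values below it (7.91). A fold against a group wholly under the limit uses the limit in its place.

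Glis2KD was compared with Control by limma 3.58.1 (lmFit and eBayes without trend) in R 4.3.3, fitted on all probes, with Benjamini-Hochberg adjustment over all of them at 0.05. The fit was tested on simulated data. Related genes were named from fixed lists: called genes above background, up to 6 per list by smallest p. Hpn, Pros1, Serpinf1 and Anxa3 were named after their values were seen. The 3 most alike genes were sought for the called member with the smallest p in each direction. The members and lists were chosen with earlier results of these data known. There were 16 alternatives: a replicate block, quantile normalization, median centring, background subtraction, normexp, an offset of 50, a filter on dim probes, trend with robust estimation, 1 probe per gene, values relative to 50 neighbouring genes, and leaving out each of the 6 arrays.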

Additional observations from a re-analysis of the deposited data

How the results depend on the processing

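Plau, Plat, S100a10 and the dimmer Anxa2 probe kept their direction and limma call under every alternative run for them, with log2 differences from -1.37 to -1.22, 0.97 to 1.54, 0.64 to 0.78 and 0.70 to 1.08. The deposited arrays already shared a common distribution, so quantile normalization and median centring could hardly change any value. Leaving out 1 array gave 5 to 6 called member probes, 4 to 5 of them higher and 1 lower, 3 called genes of the plasminogen pathway list, all lower, and 6022 to 6521 called probes in all. With the most frequent intensity subtracted, 3 member probes were called higher, 1 gene of the pathway list was called, which was lower, and of all probes 3447 were called, 1748 higher and 1699 lower; the cause was not tested. With 1 probe per gene fewer probes were tested, and 4291 were called, 2127 higher and 2164 lower. With normexp correction, and with trend and robust estimation, 1 gene of the pathway list was called higher. Among the member probes, single values were followed for the called ones and the brighter Anxa2 probe only. These kept direction and side of the threshold in 101 comparisons, lost the call in 6 (Plaur and Serpinb2) and gained it in 3 (the brighter Anxa2 probe). For the other named genes the matching counts were 280 kept, 20 lost and 2 gained.

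With the replicate number as a block, limma called 6790 probes, among them 6 member probes and 3 pathway genes, and of the other serpins 1 in place of 2. Deviations of same-numbered arrays from their group means correlated at -0.086, -0.041 and -0.050 over 18080 probes. Arrays of different numbers gave higher values, from -0.0063 to 0.063. Same-numbered arrays were thus not more alike than others by this measure. The deviations are centred within each group, so these correlations depend on one another. Whether same-numbered arrays shared a culture or day was not tested. Signal over background limits Serpinb2, Plg and Serpinf2, for which no fold can be given.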
